A study of Mus musculus with 11 samples.

Results

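Neurofilament heavy (Nefh), medium (Nefm) and light (Nefl) polypeptide, alpha-internexin (Ina), peripherin (Prph) and the calcium-binding protein S100b were followed across single-nucleus transcriptomes of the mouse trigeminal ganglion. These 6 genes were taken by name from the 14905 genes listed in all 8 count tables, and each table lists all 6. The tables hold 40359 nuclei and 132982556 UMIs (unique molecular identifiers, 1 per captured transcript). Nuclei came from pooled ganglia of 82 mice and were enriched with an antibody to NeuN, a neuronal nuclear protein. All but 1 of the tables are 10x Genomics libraries, and the exception was made by Drop-seq, another droplet method.

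All groups but one were C57BL wildtype mice (C57BL/6NCrl in the methods) over 6 weeks old, with males and females pooled. The uninjured control comprised a 10x library (10 mice) and a Drop-seq table (16 mice) that merges 4 libraries with no label tying a nucleus to its library. Infraorbital nerve transection (IOT) cut superficial branches of that nerve and spared the other trigeminal branches, and the ipsilateral ganglion was taken at day 2, 7, 21 (10 mice each) or 75 (6 mice). Facial injury consisted of skin cuts to the cheeks and forehead 2 days earlier (10 mice). Scratch lesion mice (10 mice) were of mixed FVBN, C57BL and 129 background and carried Fos-tTA, which drives a constitutively active Gnaq mutant with mCherry from a tetO transgene inserted at random. They were selected for visible lesions of the head and neck, and the methods state that mCherry was not detected in their somatosensory neurons. Each condition is a single library, so levels were not tested between conditions, and tests compare sets of nuclei within libraries. The differences between injured and other nuclei found in this way were also compared between conditions. These comparisons set IOT against the control, and IOT against facial injury and scratch lesions together. The control side rests on the single 10x library, so its spread between libraries was not measured.

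Intermediate filaments are rope-like polymers that fill the axon, and the neurofilament triplet sets the caliber of large myelinated axons and so their conduction speed. Nefl forms the core of the polymer, Nefm and Nefh add long phosphorylated side arms, and Ina copolymerizes with the triplet in many central and some peripheral neurons. Prph is a related filament protein typical of unmyelinated sensory neurons and is known to increase in regenerating axons. S100b is best known from glia and also occurs in large, fast-conducting sensory neurons. Large-diameter trigeminal neurons serve touch and proprioception, and most small-diameter ones respond to pain, itch, heat or cold.

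In the GRCm38 (mm10) assembly with GENCODE annotation, Nefh lies at chr11:4938754-4948064 on the minus strand with 4 exons, and introns make up 57.1% of its span. Nefl lies at chr14:68083863-68089095 on the plus strand with 4 exons and introns over 35.4% of the span. The principal Nefm transcript, at chr14:68119283-68124846 on the minus strand, has 3 exons and introns over 40.1%. A longer Nefm transcript reaches back to base 68082590 and spans all of Nefl on the opposite strand, and its exons overlap 1108 exon bases of Nefl. The sources used here do not say whether counting used the strand, so a read between these genes could have been assigned either way. Ina lies at chr19:47014698-47025327 on the plus strand (3 exons, introns 69.5% of the span), Prph at chr15:99055174-99058978 on the plus strand (8 exons, 51.0%) and S100b at chr10:76253853-76261159 on the plus strand (3 exons, 79.7%). Reads in introns were counted, so these shares bear on how much nuclear precursor RNA each gene can contribute.

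The 120 bases before the start of Prph, Ina and S100b are shown to set the filament genes that lead different classes (Prph and Ina) beside S100b. Sequences are RefSeq promoters on GRCm38.p6, plus strand, at chr15:99055054-99055173 for Prph, chr19:47014561-47014680 for Ina and chr10:76253716-76253835 for S100b. Capitals mark each match, on either strand, to the short promoter motifs searched for. RefSeq places the starts of Ina and S100b upstream of the GENCODE starts given above, and distances are counted from the RefSeq starts. The motifs were TATAAA, known as the TATA box, the CCAAT box, which reads ATTGG on the other strand, and the GC box GGGCGG, which reads CCGCCC on the other strand.
Prph: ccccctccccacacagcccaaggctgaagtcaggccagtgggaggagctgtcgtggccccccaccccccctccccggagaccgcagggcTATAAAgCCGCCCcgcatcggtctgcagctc
Ina: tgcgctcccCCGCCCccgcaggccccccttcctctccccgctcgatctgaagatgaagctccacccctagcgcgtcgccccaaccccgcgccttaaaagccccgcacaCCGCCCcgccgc
S100b: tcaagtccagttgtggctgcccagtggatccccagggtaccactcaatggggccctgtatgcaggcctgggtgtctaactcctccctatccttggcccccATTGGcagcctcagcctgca
Prph holds a TATA box from 31 to 26 bases before its start, followed by a GC box. Ina holds 2 GC boxes, of which the nearer ends 7 bases before the start, and S100b holds 1 CCAAT box on the minus strand, from 20 to 16 bases before the start. Of 32851 RefSeq promoters searched over the same window on both strands, 6.34% hold TATAAA, 21.3% CCAAT and 26.5% GGGCGG. G and C make up 70.8% of the Prph window, 73.3% of that of Ina and 60.8% of that of S100b, against a median of 54.2%. These matches describe letters in the windows and no binding was measured.

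Depth differed between libraries, with 3178 to 8660 nuclei and a median of 1747 to 4178.5 UMIs per nucleus. The neuronal genes Snap25 (662 to 1702 CPM) and Rbfox3, which encodes NeuN (193 to 383 CPM), were present in all 8 tables. Malat1, a nuclear long noncoding RNA, ranged from 41797 to 115571 CPM. Pairs of 10x libraries shared 16 to 92 cell barcodes, at most 1.37% of the smaller library. Nuclei were clustered without the members and named from other marker genes, which gave 22 clusters: 7 named classes, 13 clusters known by their leading genes and 2 injured clusters. By lists of large- and small-neuron genes that exclude the members, 12 were counted as large and 8 as small. Among the small ones, cluster Cplx2/Chrna7 scored close to even and is deep (median 5398 UMIs), so its size is uncertain. Cluster Calb2/Pcp4 (711 nuclei) stood apart by the lowest Malat1 level (26758 CPM) and the highest summed satellite glia markers (1550.2 CPM), and Nefh, Nefl and Nefm are among its leading genes. It is left out of the class order below and its values are given separately. In the sums of large classes and of uninjured nuclei below it is kept, except in the settings that leave it out.

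Levels are given as CPM, the UMIs of a gene scaled to a common total for all UMIs of the same nuclei. These nuclei are either a whole library or the set named. Nefh ranged over the 7 10x libraries from 510.5 CPM (IOT day 2) to 950.0 (facial injury) with a median of 738, and was at 712 CPM in the control. Nefm ranged from 522 to 1010.7 CPM (median 697) and Nefl from 1398 to 3187 CPM (median 1728), and their control values of 539 and 1609.9 CPM lay below the medians. Prph ranged from 649 to 1427 CPM with a median of 1018, and its control value of 877 CPM was also below the median. For all of these genes the IOT day 2 library was lowest and the facial injury library highest. S100b ranged from 375 CPM at IOT day 2 to 616 CPM at IOT day 7 (median 447, the control). Ina was far sparser, with 179 to 573 UMIs in a whole library, and ranged from 11.3 CPM (IOT day 21) to 26.2 CPM (scratch lesions), with the control at 13.3 CPM.

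The highest library exceeded the lowest by 1.86-fold for Nefh, 1.94-fold for Nefm, 2.28-fold for Nefl, 2.32-fold for Ina, 2.20-fold for Prph and 1.64-fold for S100b. Counting intervals were much narrower than this spread (control Nefh 699 to 724 CPM, control Ina 11.6 to 15.1 CPM), but they cover counting error only and say nothing of the spread between mice. Condition, library and mouse pool cannot be told apart here. After each nucleus was thinned to 1000 UMIs, the share with a Nefl UMI ran from 55.1% in the control to 85.5% in the facial injury library, and the share with an Ina UMI from 1.07% (IOT day 21) to 2.47% (scratch lesions). Without thinning, the control shares were 82.6% for Nefl and 4.62% for Ina.

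**Figure D1:**
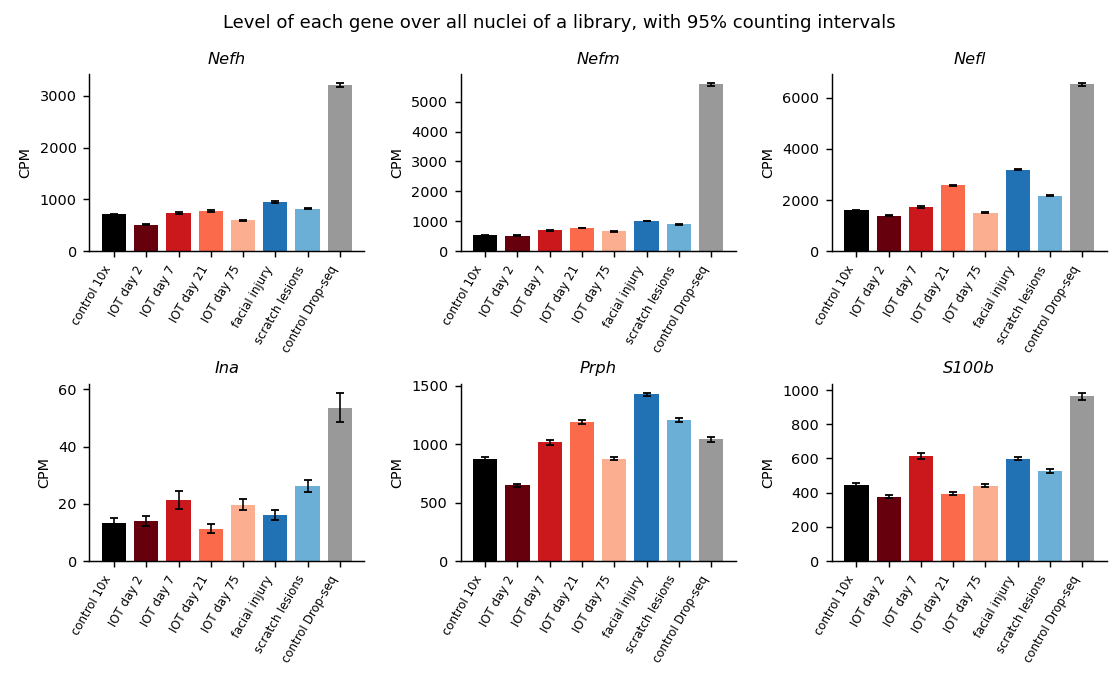
Bars give CPM (y axis, from 0) of each gene over all nuclei of the 7 10x libraries and the Drop-seq table, and error bars are exact Poisson 95% intervals that cover counting error. Within 10x the facial injury bar is tallest for Nefh, Nefm, Nefl and Prph, and the grey Drop-seq bar exceeds every 10x bar for all genes but Prph.

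The uninjured control allowed the 2 platforms to be set side by side. Nefm was at 539 CPM by 10x and 5574 CPM by Drop-seq, a 10.3-fold ratio, and only 0.548% of 9668 genes had a higher one. Nefh was at 712 and 3207 CPM (4.5-fold), Nefl at 1609.9 and 6523 CPM (4.05-fold) and Ina at 13.3 and 53.5 CPM (4.02-fold). The ratio was 2.15 for S100b (447 and 963 CPM) and 1.19 for Prph (877 and 1042 CPM), where the median gene stood at 1.18. Thus 5 of the 6 members were more than 2-fold higher by Drop-seq, while 14.4% of all genes were. The ratio therefore differed between filament genes, with Prph at the median of all genes and the triplet among the highest 2%. Thinned to 1000 UMIs, the share of nuclei with a Nefm UMI was 27.9% by 10x and 82.8% by Drop-seq, while the share with a Prph UMI was 52.3% and 59.9%. There is 1 table per platform, so the ratios carry no test, and platform cannot be told apart from mouse pool.

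Across neuron classes, the triplet genes shared their top group of classes. Among the 19 classes with at least 20 nuclei in every 10x library, cluster Calb2/Col5a2, a large class, had the highest mean Nefh (1449 ± 449 CPM, SD over n = 7 libraries), Nefm (1447 ± 361 CPM) and Nefl (3415 ± 1066 CPM). It was first for Nefm in 7 of 7 libraries, for Nefl in 4 and for Nefh in 3, and cluster Chodl/Grm5 (1302 ± 306 CPM) was first for Nefh in the other 4. Clusters Ndst4/Ano1 and Col19a1/Ntng1, both large, completed the top group for Nefh at 1169.6 ± 273 and 982 ± 242 CPM. These 4 large classes lay above every small class for each triplet gene by class means, whereas within single libraries this held for 3 to 5 large classes. When log2 scaled counts were averaged over nuclei instead, Chodl/Grm5 came first for Nefh, Ndst4/Ano1 for Nefm and the small cluster of uncertain size, Cplx2/Chrna7, for Nefl, while the top 5 classes were shared between the scales.

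At the other end for Nefh and Nefm were the named small classes. For Nefl, Mrgpra3-like nuclei ranked above the large clusters Grm8/Fam19a1, Adarb2/Mgat4c and Adamts16/Unc5d by class means. Mean Nefh was 301 ± 115 CPM in peptidergic-like nuclei (Tac1, Calca), 278 ± 101 in Il31ra/Nppb-like nuclei (itch neurons), 269 ± 129 in Cdh9/Fam19a4-like nuclei, 260.3 ± 94.9 in Mrgprd-like nuclei (non-peptidergic nociceptors) and 245 ± 107 in Mrgpra3-like nuclei. Il31ra/Nppb-like nuclei were lowest for Nefm (279 ± 113 CPM, last in 5 of 7 libraries) and Nefl (794 ± 380 CPM, last in 7 of 7). The exception was the Trpm8-like class, the cold sensors. Its Nefh ranged from 420.5 to 835 CPM over libraries (median 528) while the 5 other named small classes spanned 135 to 503 CPM, and it was above all of them in 7 of 7 libraries. The same held in 7 of 7 libraries for Nefm (median 530.5 CPM) and Nefl (median 1319.6 CPM), and in none for S100b (median 125 CPM).

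Between these ends, most neighbors in the order could not be separated. Of 108 neighboring pairs over the 6 genes, none passed an adjusted p of 0.05, and 14 reached 0.0156, the smallest unadjusted p that the exact two-sided sign-flip permutation test over 7 libraries can give (smallest adjusted p 0.121). These 14 pairs, which had the same direction in 7 of 7 libraries, include Ndst4/Ano1 over Col19a1/Ntng1 for Nefh, Calb2/Col5a2 over Ndst4/Ano1 for Nefm and peptidergic-like over Il31ra/Nppb-like nuclei for Nefl. The design allows no smaller p, so the order is a description.

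Prph ran the other way. Its highest means were in Il31ra/Nppb-like (1639 ± 388 CPM), Mrgprd-like (1607 ± 401), Cdh9/Fam19a4-like (1542 ± 392), peptidergic-like (1481 ± 359) and Trpm8-like nuclei (1452 ± 321), and its lowest in the large cluster Adgrg6/Adra1a (458 ± 170 CPM, last in 5 of 7 libraries). By class means 7 of the 8 small classes lay above every large class, which held for 7 classes in 5 libraries and for 6 in the facial injury and scratch lesion libraries. The exception, cluster Bmpr1b/Kcnt2 (769 ± 232 CPM), lay among the large classes. It scored below 0 on both size lists (-0.223 for large, -0.057 for small) and was counted as small by the higher score. Cluster Grm8/Fam19a1 also scored below 0 on both (-0.037 for large, -0.195 for small) and was counted as large by the same rule. The range was narrow: Prph in its lowest class was still 458 CPM, and 35.7% ± 10.8 of Adgrg6/Adra1a nuclei thinned to 1000 UMIs held a Prph UMI, against 77.1% ± 7.6 of Il31ra/Nppb-like nuclei.

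Ina was concentrated in few classes. Its mean was highest in the large cluster Chodl/Grm5 (91.9 ± 23.0 CPM, 345 UMIs in all, first in 6 of 7 libraries). Mrgprd-like nuclei followed at 56.5 ± 18.3 CPM, then peptidergic-like at 41.5 ± 6.7, Mrgpra3-like at 35.2 ± 17.9 and Cdh9/Fam19a4-like at 23.3 ± 6.7 CPM. The other 14 classes had means of 2.75 to 8.59 CPM, among them Trpm8-like (7.92 ± 2.39) and Il31ra/Nppb-like nuclei (4.82 ± 6.18). The step from Cdh9/Fam19a4-like to Trpm8-like nuclei was 1.45 ± 0.66 (SD) on the log2 scale and was seen in 7 of 7 libraries. Cluster Chodl/Grm5 is the deepest class (median 6253 UMIs), but the share with an Ina UMI after thinning to 1000 UMIs was still 6.06% ± 0.83 there and 5.26% ± 1.48 in Mrgprd-like nuclei. It was 0.256% ± 0.352 in Adgrg6/Adra1a nuclei, where 4 of 7 libraries had no Ina UMI. Non-neuronal clusters had been removed before deposit and UMIs from free RNA were not measured. This class therefore gives only the lowest level seen among the neuron classes.

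S100b was also highest in cluster Chodl/Grm5 (983 ± 197 CPM, first in 6 of 7 libraries), ahead of Calb2/Col5a2 (766 ± 273), Cplx2/Chrna7 (754 ± 193), Ndst4/Ano1 (742 ± 216) and Col19a1/Ntng1 (674 ± 184). Chodl/Grm5 exceeded Cplx2/Chrna7 in 7 of 7 libraries. The 6 named small classes lay between 145 ± 57.3 CPM (Mrgprd-like) and 239 ± 59.6 CPM (peptidergic-like), and no other class had a mean below 334 CPM. Cluster Calb2/Pcp4, set aside above, had means over 6 libraries of 2963 ± 551 CPM for Nefh, 2635 ± 446 for Nefm, 7281 ± 2583 for Nefl and 1705 ± 419 for S100b, each above every other class. Its Prph, at 1370.2 ± 318 CPM, exceeded that of every other large class. Its Ina was 17 ± 11.8 CPM.

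**Figure D2:**
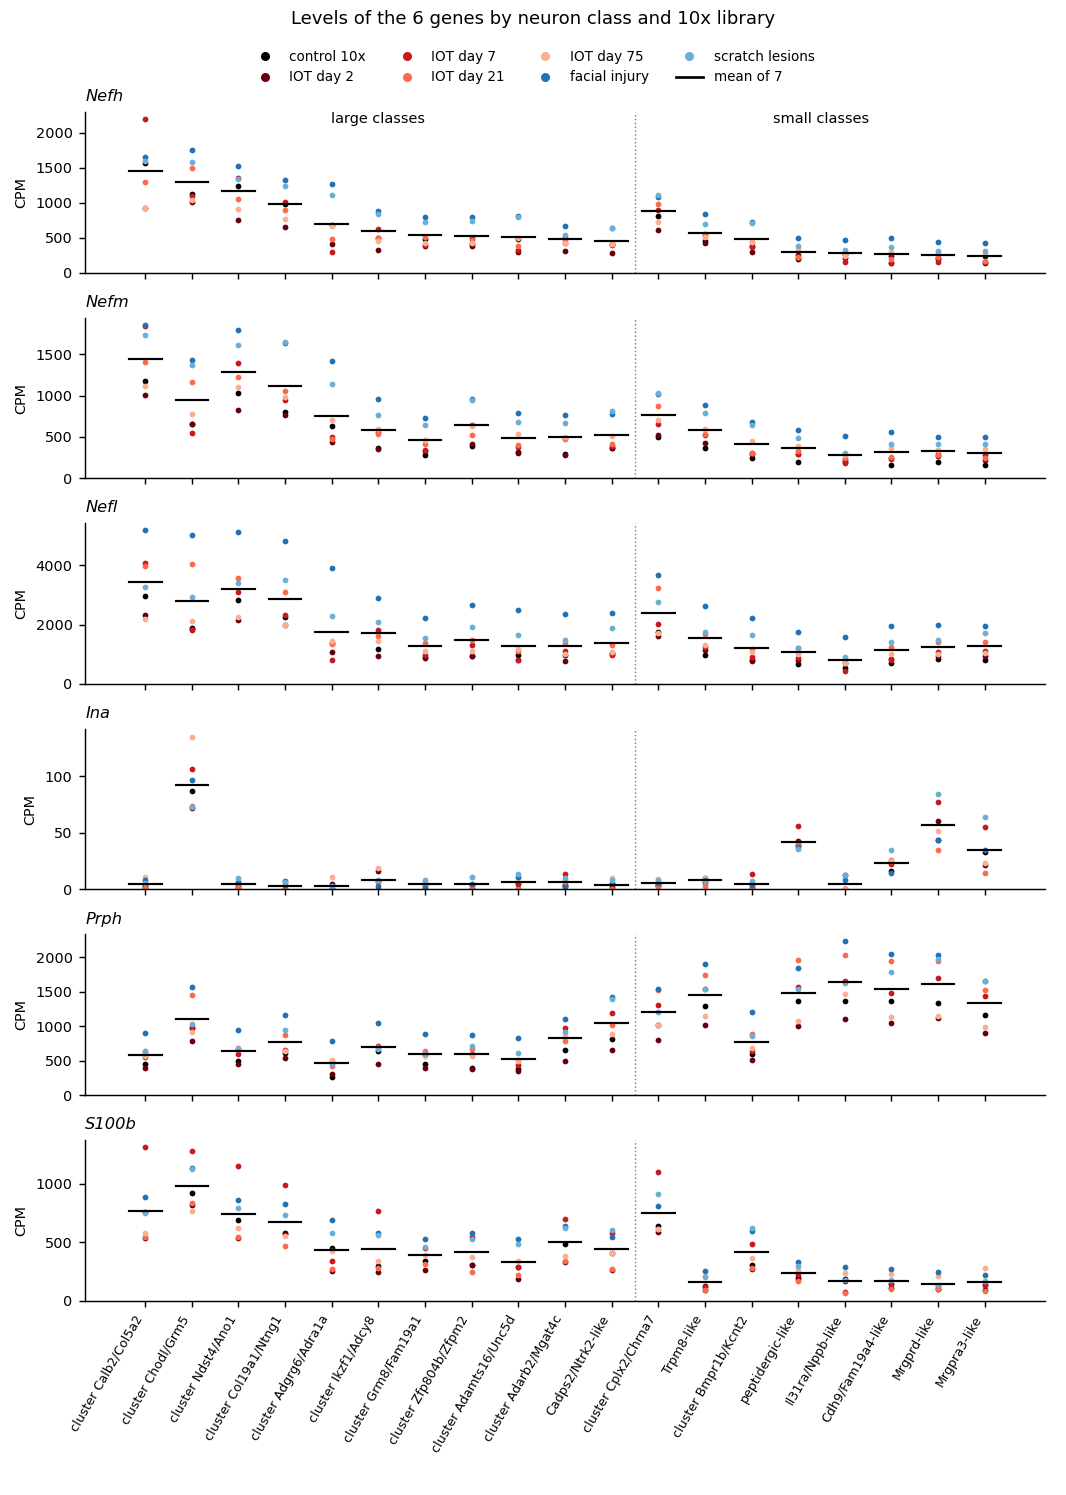
Each point is the CPM (y axis, from 0) of a gene in a neuron class (x axis, large classes left of the dotted line, ordered by Nefh) in 1 of the 7 10x libraries, and black lines are means. The 4 leftmost classes have the highest Nefh means, most Prph means right of the dotted line exceed those left of it, and Ina stands out in 5 classes.

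The proportion of filament genes shifted between classes. The Prph to Nefl ratio of CPM was 0.178 ± 0.041 (SD, n = 7 libraries) in Calb2/Col5a2, 0.994 ± 0.22 in Trpm8-like, 1.31 ± 0.21 in Mrgprd-like and 2.31 ± 0.87 in Il31ra/Nppb-like nuclei. The Nefh to Nefl ratio was lowest in Mrgpra3-like (0.195 ± 0.068) and Mrgprd-like nuclei (0.210 ± 0.049) and highest in Chodl/Grm5 (0.501 ± 0.103). The Nefm to Nefl ratio varied least, from 0.242 to 0.454. These are ratios of UMI counts, which gene length and intron content also set, so only their change between classes can be read.

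Over the 19 class means of log2(CPM + 1), Pearson's r was 0.96 for Nefh with Nefm, 0.95 for Nefm with Nefl, 0.91 for Nefh with Nefl and 0.89 for Nefh with S100b. Prph went against Nefh (-0.54), Nefm (-0.54) and S100b (-0.58) and less against Nefl (-0.37), and Ina was closest to Prph (0.60) and weakly opposed to Nefh (-0.29). Classes share libraries and differ in depth, so these values are given without a test. Among 3004 genes with a mean of at least 50 CPM, the patterns most like Nefh belonged to Nefm, Nat8l (0.95), Vamp1 (0.94, a synaptic vesicle SNARE protein), Glrb (0.94, the glycine receptor beta subunit) and Arhgef4 (0.93). Nefm was closest to Ube2o (0.97), Glrb, Nefh, Vamp1 and Nefl, and Nefl to Nefm, Dffa (0.93), Nat8l, Nefh and Mapk8ip3 (0.90). S100b was closest to Kcna1 (0.91, an axonal potassium channel), Fam57b, Nefh, Lgmn and Rnf157. Prph was close to Vamp2 (0.96, a synaptic vesicle SNARE protein), Eef1a1 (0.95, a translation elongation factor), Srebf2 (0.95) and Thra (0.94, a thyroid hormone receptor), and Ina, at lower values, to Ncam1 (0.79), Ptprf (0.78), Cyb5b, Gng2 and Prkar2b.

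**Figure D3:**
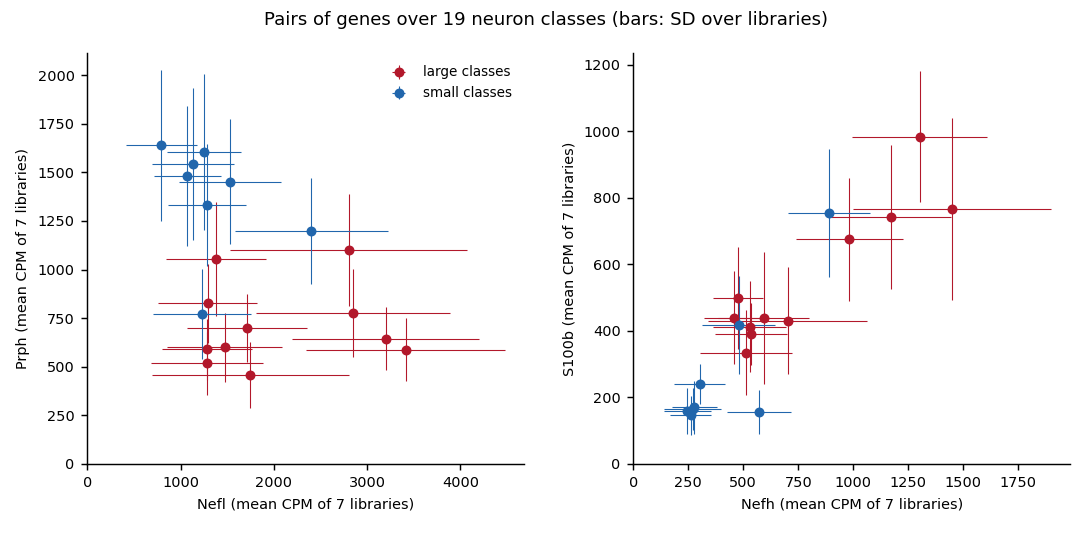
Points are the 19 neuron classes at their mean CPM over 7 10x libraries, with SD bars, red for large and blue for small classes. Prph against Nefl (left) places the 6 named small classes at high Prph, with Nefl means that overlap those of several large classes, and S100b against Nefh (right) rises together, with a Pearson's r of 0.89 on the log2 scale.

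Large and small classes were compared over uninjured nuclei (fewer than 2 Atf3 or Sema6a UMIs and outside the injured clusters), summed per library. Nefh was at 652 to 1189.9 CPM in large classes (median 1009 over 7 libraries) and 364 to 742 CPM in small ones (median 471). Large exceeded small in every library, by 1.51- to 3.01-fold, although the ranges over libraries overlapped. Nefm was at 657 to 1322 CPM (median 992) against 295 to 754 CPM (median 487), and Nefl at 1668 to 3892 CPM (median 2429) against 1026 to 2597 CPM (median 1278). S100b was at 468 to 952 CPM (median 617) in large and 264 to 480 CPM (median 357) in small classes. Each of these was higher in large classes within every library.

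The reverse held for the 2 others. Prph was at 478 to 1033 CPM (median 689) in large against 899 to 1736 CPM (median 1476) in small classes, lower in large in 7 of 7 libraries by ratios of 0.466 to 0.652. Ina was at 7.38 to 19.4 CPM (median 9.45) against 15.7 to 37.7 CPM (median 21.9), also lower in 7 of 7 libraries, although its single highest class is large.

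In the edgeR quasi-likelihood test with library as a block, log2 fold changes of large over small were 1.01 ± 0.08 (SE) for Nefh (adjusted p = 1.65e-09, Benjamini-Hochberg), 1.04 ± 0.07 for Nefm (7.79e-11), 0.75 ± 0.06 for Nefl (1.96e-09) and 0.91 ± 0.08 for S100b (3.30e-09). They were -0.89 ± 0.05 for Prph (2.52e-12) and -1.02 ± 0.14 for Ina (3.25e-06). Thus 4 of 6 members were called higher and 2 lower, where 29.4% of 13044 genes were called higher and 28.6% lower. Genes used for clustering or naming were left out of this test, so these shares do not cover the genes most variable between nuclei. The p-values measure the spread over 7 libraries of different conditions, each of pooled mice. All 6 calls held in each of 19 settings tried, and values moved most for S100b, to 1.92 when the small group kept only its named classes, and for Ina, to -1.83 without the deepest 5% of nuclei. Summed satellite glia markers (402 to 909 CPM in large, 423 to 1094 in small) and Schwann cell markers (444 to 1098 and 688 to 1760.2 CPM), the cells in which S100b is best known, were lower in large classes in 7 of 7 libraries. Their part in the S100b value was not tested. After thinning, 58.5% of large and 51.6% of small control nuclei held a Nefl UMI, and 0.526% and 1.99% an Ina UMI.

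**Figure D4:**
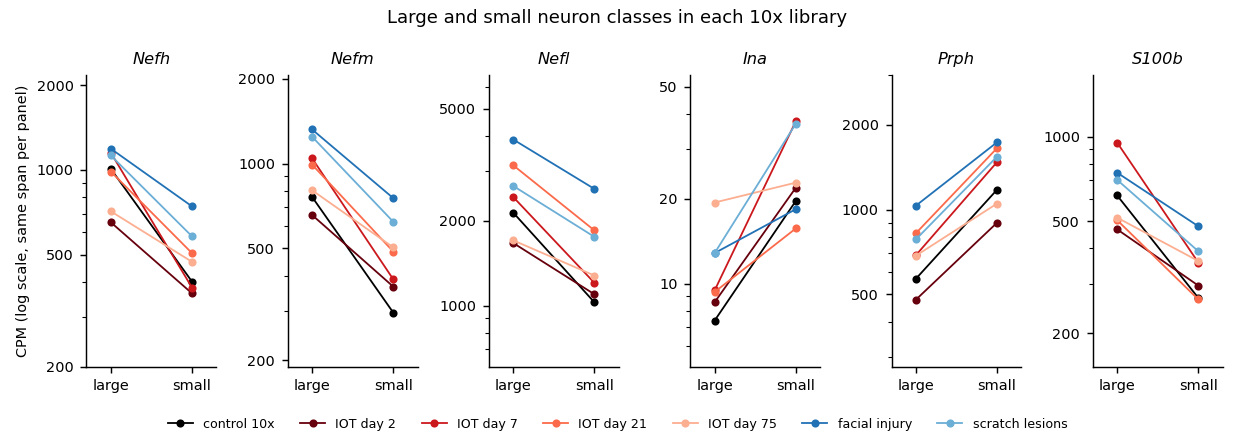
Lines join the CPM (log axis of equal span in every panel) of large and small classes within each 10x library. Lines fall from large to small for Nefh, Nefm, Nefl and S100b and rise for Ina and Prph in all 7 libraries.

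Genes of filament assembly and of the axon were followed as 5 lists. Of 17 genes of the node of Ranvier and myelinated axon, 13 were higher in large classes and 3 lower (median log2 fold change 0.61, against 0.00 over all genes tested). Kcnq3 (1.33 ± 0.05, adjusted p = 1.55e-14, edgeR) and Kcna1 (1.32 ± 0.08, 2.91e-11), potassium channels of the node and the juxtaparanode, and Cntn1 (1.14 ± 0.07, 3.86e-11), an axonal adhesion protein, went with the triplet, while the sodium channel beta subunit Scn2b went against it (-1.59 ± 0.13, 2.10e-09). S100b was an exception in its own family: of 8 other S100 genes and receptors tested, 7 were lower in large classes and none higher (median -0.90), led by S100a11 (-1.88 ± 0.11, 1.43e-11) and S100a6 (-1.87 ± 0.12, 7.95e-11).

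Of 13 other intermediate filament genes, 4 were higher and 5 lower in large classes (30.8% and 38.5%, near the shares over all genes; median -0.12). Vim, encoding vimentin (-0.71 ± 0.07, 1.12e-08), and Lmna, encoding lamins A and C (-0.47 ± 0.05, 8.79e-08), were lower. Among 32 genes of filament linkers and the axonal skeleton, 10 were higher and 16 lower (median -0.13), with Map2 (1.65 ± 0.06, 2.29e-14) and Tubb2b (-1.86 ± 0.11, 1.84e-11) at the ends. Of 27 genes of filament phosphorylation, transport and turnover, 11 were higher and 8 lower (median 0.03), the largest difference being that of the kinase Camk2a (-2.46 ± 0.09, 1.77e-14).

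Injured neurons were marked by Atf3, a transcription factor induced by axon damage, and Sema6a, a semaphorin. A nucleus with at least 2 UMIs of these genes was put in the injury state and one with none out of it. The injury state held 826 nuclei at IOT day 2, 434 at day 7, 366 at day 21 and 302 at day 75, 201 after facial injury, 321 with scratch lesions and 112 in the 10x control. Such nuclei were deeper (median 4188 UMIs against 3048.5 at day 2), and the part of depth in the values below was not tested beyond the setting limited to 2000 to 6000 UMIs. The 112 control nuclei were mostly of large classes (80.4%), and 2 lay in the injured clusters. Those clusters held 64.3% of injury-state nuclei at IOT day 2, 80.6% at day 7, 55.7% at day 21 and 26.8% at day 75. They held 40.8% after facial injury and 38.3% with scratch lesions.

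By this rule no triplet gene passed the test after IOT. From none to injury state, Nefh went from 490.2 to 486 CPM at IOT day 2, from 709.6 to 666 at day 7, from 727 to 795 at day 21 and from 548 to 742 at day 75. Nefm went from 501 to 528, 678 to 658, 716 to 878 and 604 to 838 CPM at the same days, and Nefl from 1345 to 1397, 1721 to 1438, 2419 to 2635 and 1393 to 1813 CPM. All 3 genes were lower in the injury state at day 7 and higher at days 21 and 75, with Nefh slightly lower and Nefm and Nefl slightly higher at day 2. The fitted changes after IOT were 0.16 ± 0.09 for Nefh (adjusted p = 0.275, edgeR quasi-likelihood), 0.24 ± 0.08 for Nefm (0.0541) and 0.12 ± 0.08 for Nefl (0.422). Without the day 7 library Nefm passed at 0.29 (adjusted p = 0.0297), and among nuclei with 2000 to 6000 UMIs the 3 values were -0.12, -0.019 and -0.15.

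S100b went from 367 to 336, 614 to 483, 379 to 383 and 405 to 509.7 CPM at days 2, 7, 21 and 75 (0.01 ± 0.09, adjusted p = 0.970). Prph was lower in the injury state at all 4 days, from 672 to 565, 1099 to 692, 1212 to 1167 and 883 to 822 CPM, and did not pass the test (-0.22 ± 0.09, adjusted p = 0.101). Ina went from 15.4 to 11.7 CPM (49 UMIs in the injury state) at day 2, 24.6 to 9.81 (12 UMIs) at day 7, 12.7 to 4.71 (8 UMIs) at day 21 and 22.2 to 8.47 (19 UMIs) at day 75. The 2 ranges did not overlap.

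Ina was thus the only member called after IOT, at -0.95 ± 0.20 (adjusted p = 0.00330, lower in 4 of 4 libraries), where 7.09% of 16535 genes were called lower. It held in 13 of 14 other settings, the exception being the fit without the library block (adjusted p = 0.230). In the control library, however, the same rule also separated Ina, at 2.98 CPM (2 UMIs) against 14.6 CPM, and the IOT effect minus the control effect was 1.39 ± 0.93 (adjusted p = 0.672).

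In the control, injury-state nuclei had 1159 against 661 CPM of Nefh, 1017 against 502 of Nefm, 2807 against 1514 of Nefl and 736 against 426 of S100b. These are values of 1 library. In a fit that assumes this library to vary like the injured ones, Nefh (0.76 ± 0.18, adjusted p = 0.0474), Nefm (0.97 ± 0.17, 0.00711) and Nefl (0.84 ± 0.17, 0.0209) were called higher, where 0.617% of genes were, and S100b missed the threshold (0.74 ± 0.19, 0.0695). The share of large classes and the depth moved with the rule, and their part in these values was not tested. The IOT effect minus that of this 1 control library was -0.61 ± 0.20 for Nefh, -0.73 ± 0.18 for Nefm, -0.73 ± 0.19 for Nefl and -0.73 ± 0.21 for S100b, with adjusted p between 0.207 and 0.337, and 0 of 6 members were called (0.0121% of genes, 2 in all). DESeq2 called 0 as well, though at an unadjusted p of 0.05 these 4 would pass in either tool, and without the IOT day 75 library all 4 did after adjustment (-0.66 to -0.80, adjusted p 0.0155 to 0.0497).

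After the milder injuries 0 of 6 members were called by edgeR (2.84% of genes were, in either direction). At an unadjusted p of 0.05 Nefh, Nefm and Nefl would pass, and DESeq2 called Nefm (0.50, adjusted p = 0.0268). From none to injury state, Nefm was at 967 and 1392 CPM after facial injury and 861 and 1146 CPM with scratch lesions (0.41 ± 0.11, adjusted p = 0.0712). Nefh was at 918 and 1396 CPM and at 789 and 918 CPM, and Nefl at 3062 and 4280.2 CPM and at 2083 and 2679 CPM. Nefh, Nefm, Nefl and S100b were higher, and Prph and Ina lower, in the injury state of both libraries. Differences between the IOT and the milder injury effects had adjusted p of at least 0.948 for all 6 members.

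The 2 injured clusters, found without the members and holding most injury-state nuclei of days 2, 7 and 21, gave other values. They held 573, 502, 251 and 93 nuclei at IOT days 2, 7, 21 and 75. Nefh in these clusters against all other nuclei was at 315 and 541 CPM at day 2, 351 and 795 at day 7, 536 and 788 at day 21 and 446 and 603 at day 75, with no overlap. S100b was at 208 and 401, 252 and 669, 263 and 402, and 292 and 444 CPM, again with no overlap between the 4 injured and the 4 other values. Nefm was at 382 and 544, 414 and 739, 569 and 789.7, and 612 and 664 CPM, the gap closing at day 75, and Nefl at 926 and 1473, 804 and 1865, 1924 and 2613, and 1288 and 1517 CPM. After facial injury Nefh was at 954 and 949.9, Nefm at 963 and 1011 and Nefl at 2874 and 3192 CPM (138 nuclei in the clusters), and with scratch lesions they were at 496 and 831, 723 and 912, and 1936 and 2184 CPM. The triplet was thus lower in the injured clusters of all 4 IOT libraries and of scratch lesions, and Nefh was level after facial injury.

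The fit gave -0.63 ± 0.10 for Nefh (adjusted p = 1.12e-05, edgeR), -0.38 ± 0.09 for Nefm (0.00268), -0.53 ± 0.10 for Nefl (0.000235), -0.80 ± 0.10 for S100b (9.37e-07) and -1.05 ± 0.24 for Ina (0.00138). Prph, at 480 and 676, 641 and 1074, 1205 and 1190.4, and 897 and 877 CPM, was lower at days 2 and 7 and level at days 21 and 75, and was not called (-0.19 ± 0.10, adjusted p = 0.160). Thus 5 of 6 members were called lower, where 11.9% of genes were, while the UMI rule called 1. The 11.9% leaves out genes used for clustering or naming, which the fit by the UMI rule kept. Cluster Calb2/Pcp4 is among the other nuclei here, and the fit by cluster was not run without it. Clusters are groups of like nuclei, so this comparison is no independent test of injury, and the members themselves were withheld from the clustering. The triplet was thus called lower when injured nuclei were set by cluster. By the UMI rule no triplet gene was called after IOT, and its direction varied between libraries and settings.

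The 2 clusters also differed from each other. Cluster Atf3/Sema6a (1277 nuclei) had 619 ± 343 CPM of Nefh, 392 ± 192 of S100b, 790 ± 291 of Prph and 5.40 ± 2.91 of Ina over 6 libraries. Cluster Gal/Lmo7 (495 nuclei) had 388 ± 168 CPM of Nefh, 185 ± 99.996 of S100b, 1491 ± 408 of Prph and 34.2 ± 16 of Ina over 5 libraries. By these means the second cluster was higher in Prph and Ina and lower in Nefh and S100b, although the SDs of Nefh and S100b overlap. These SDs describe the spread between libraries, the means cover different numbers of libraries, and differences within libraries were not tested.

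**Figure D5:**
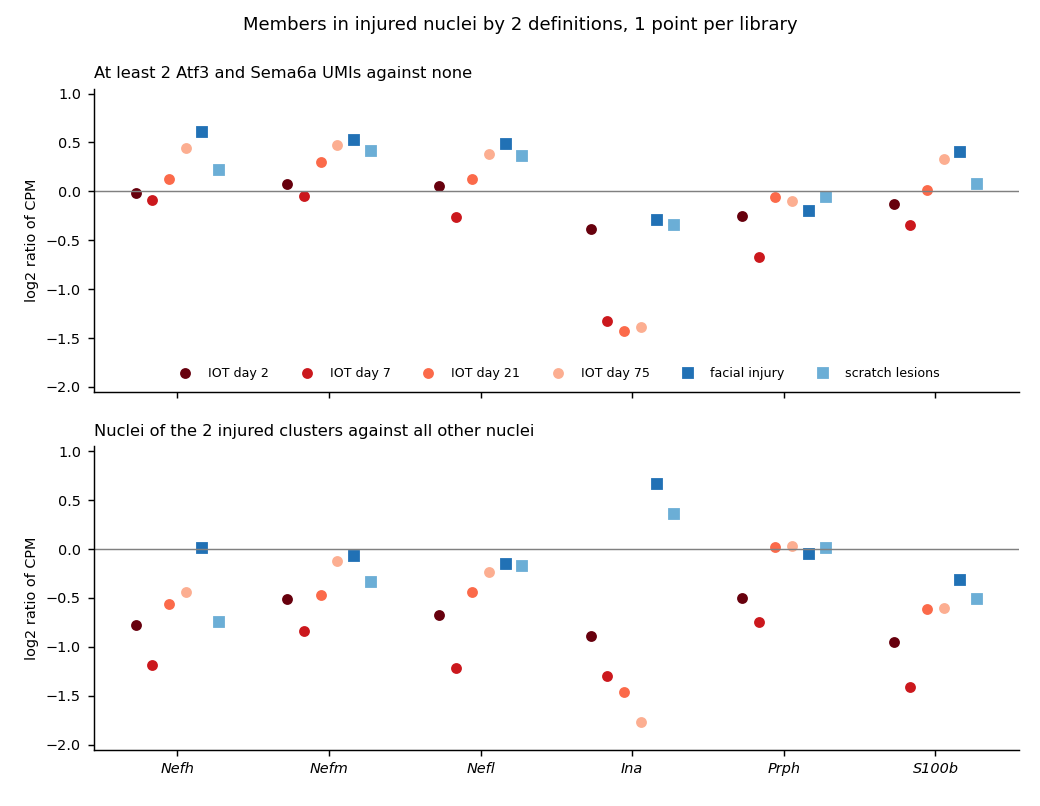
Points are log2 ratios of CPM (y axis, 0 marks no difference) for each gene in each injury library, circles for IOT and squares for the milder injuries, with injured nuclei set by UMIs (top) or by cluster (bottom). Triplet and S100b points lie around 0 in the top panel and below it in the bottom one after IOT, and Ina circles lie below 0 in both.

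To set injured nuclei beside neurons of like size, the 1928 injury-state nuclei of the IOT libraries were split by genes that the study took from injured groups of these nuclei into an I1 side (1395 nuclei; Piezo2, Ntng1 and others), compared with uninjured large classes, and an I2 side (533 nuclei; Gal, Rgs4 and others), compared with uninjured small classes. Within 0.25 of the dividing score lay 177 nuclei (9.18%). Genes used for clustering, naming or the split were left out of these fits and of their shares of genes called. On the I1 side Ina was at 3.66, 5.64, 2.96 and 6.74 CPM at days 2, 7, 21 and 75 (4 to 12 UMIs), against 7.40, 10.9, 10.2 and 18.4 CPM in large classes. It was the only member called (-1.25 ± 0.26, adjusted p = 0.00928, where 3.14% of genes were called lower), and the call was lost in DESeq2 (adjusted p = 0.0585), without the deepest 5% of nuclei (-0.54, 0.338), without the library block (0.393) and without day 21 (0.0548). Nefh (-0.13 ± 0.09), Nefm (-0.05 ± 0.08), Nefl (-0.08 ± 0.09), Prph (0.11 ± 0.09) and S100b (-0.23 ± 0.09) did not pass, with adjusted p from 0.146 to 0.794.

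When the I1 side was limited to nuclei in the injured clusters, a choice made after the values above were seen, Nefh (-0.84 ± 0.11, adjusted p = 2.54e-06), Nefm (-0.62 ± 0.11, 7.50e-05), Nefl (-0.66 ± 0.12, 0.000145) and S100b (-0.85 ± 0.11, 2.14e-06) were lower as well, where 10.8% of genes were. Nefh there was at 311 to 581 CPM over the 4 days against 624 to 1086 CPM in uninjured large classes, with no overlap. Those large classes include cluster Calb2/Pcp4, and this limited fit was not run without it. Prph did not follow, with 2 of 4 libraries higher.

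On the I2 side Nefm was at 435, 409, 672 and 683 CPM at days 2, 7, 21 and 75 against 353, 383, 473 and 469 CPM in uninjured small classes. It was higher in 4 of 4 libraries (0.35 ± 0.11, adjusted p = 0.0331, where 5.59% of genes were called higher). The call was lost in DESeq2 (0.0747), without the low-count filter (0.212), without the library block (0.815) and without day 2, 21 or 75 (0.0969, 0.178 and 0.0985). In injured clusters alone it was 0.19 (adjusted p = 0.358), and there S100b was lower, at 157 to 197 against 253 to 347 CPM (-0.76 ± 0.15, adjusted p = 5.29e-06, where 8.05% of genes were). With the cluster of uncertain size left out of the small classes, Nefh (0.67), Nefm (0.64), Nefl (0.35) and S100b (0.70) were all higher on the I2 side. No other member was called on the I2 side as a whole, where Ina and Prph had adjusted p of 0.747 and 0.270.

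In the injury state after IOT, 13 of 32 linker and axonal skeleton genes were called higher and none lower (median 0.22, against -0.01 over all genes), where 8.48% of all genes were called higher and 7.09% lower. No gene of the 5 lists was called for the IOT effect minus that of the control, where the median of these 32 was 0.01 against 0.08 over all genes. Stmn4 (1.64 ± 0.20, adjusted p = 2.88e-05, edgeR) and Stmn2 (0.94 ± 0.12, 3.74e-05), which regulate microtubules in growing axons, rose with Map2 (0.73 ± 0.09, 2.89e-05) and Tubb2a (0.51 ± 0.12, 0.00596). Lmna (0.52 ± 0.11, 0.00349) and Vim (0.42 ± 0.13, 0.0354) were the 2 of 13 other intermediate filament genes called, both higher. Of 27 kinase, transport and turnover genes, 3 were higher and 5 lower, among them Camk2a (-1.58 ± 0.12, 3.18e-07) and Rock2 (0.74 ± 0.09, 2.04e-05), a kinase. Arhgef28 (-0.55 ± 0.11, 0.00255), whose product binds Nefl mRNA, was lower. Injury-state nuclei held 572 to 883 CPM of summed satellite glia markers against 399 to 806 CPM in the others, and 588 to 1385 CPM of Schwann cell markers against 625 to 1449 CPM. The part of these cells in the list counts was not tested. At the 4 IOT days 68.9% to 78.1% of injury-state nuclei scored for the I1 side, against 45.4% to 48.9% of the others. The part of this shift in the list counts was not tested. Beside uninjured classes of like size, Stmn4 was at 1.39 on the I1 and 2.22 on the I2 side. Stmn2 was at 1.12 and 0.94 there, and Camk2a at -0.66 and -1.19. Tubb2b (1.37) and Ank3 (1.36) were also called higher on the I1 side.

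Among 9 other S100 genes and receptors, S100a11 (1.57 ± 0.21, 6.97e-05) and S100a10 (0.81 ± 0.11, 0.000124) were higher and S100a6 lower (-0.76 ± 0.13, 0.000499), while S100b did not pass. Of the 17 node genes 5 were higher and 3 lower, with Kcnq3 (0.90 ± 0.10, 1.30e-05) and Scn2b (-1.20 ± 0.20, 0.000547) at the ends. Beside uninjured classes of like size, Kcnq3 was at 0.57 on the I1 and 0.84 on the I2 side. On the I2 side Scn2b was at -0.95 and S100a6 at -0.49. After the milder injuries Stmn4 (1.31 ± 0.31, 0.0301), Rock2 (0.71 ± 0.13, 0.00661) and Camk2a (-0.88 ± 0.18, 0.0149) were called in the direction seen after IOT, and no other gene of the 5 lists was.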

How the data were processed

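Counts per gene and nucleus were deposited by the authors. Per the labels and methods, nuclei were freed from frozen ganglia with a Dounce homogenizer, pulled down with anti-NeuN microbeads and sequenced, intronic reads on mm10 were included, and low-quality nuclei and non-neuronal clusters were dropped. The submitters' processing notes list Seurat 2, Cell Ranger 2.1.0 for 10x, STAR 2.5.3a for Drop-seq and bcl2fastq 2.17. The sources used here give no annotation. Depth ran from 7735811 UMIs (Drop-seq) to 22003842 (facial injury).

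The members and gene lists were chosen with earlier results of these data known. Nuclei were clustered by Leiden (scanpy 1.11.5, leidenalg 0.10.2, resolution 1) without the members, markers and lists (246 genes, 236 of them listed). A class name needed a mean marker z of 0.5 with a lead of 0.25, 3 markers and 20 nuclei. No doublet caller was run, and the deepest 5% of nuclei were left out as an alternative. UMIs were summed per library and set (14 sums, or 8 for the I1 and I2 sides) and tested with edgeR 4.0.16 quasi-likelihood in R 4.3.3 with TMM, filterByExpr and library as a block, with Benjamini-Hochberg adjustment over all genes tested and a threshold of 0.05. Genes used for clustering or naming were left out of the fits by size, by injured cluster and by side. The members and the 5 lists, withheld from clustering, were kept. Residual degrees of freedom were 6 for size, 4 for injury and 3 for each side. Each SE was obtained by dividing the size of the log2 fold change by the root of its F statistic. DESeq2 1.42.0, other scalings, filters, resolutions, depths and injury rules were alternatives. Genes named besides the members were the 5 most like each member (1 is not reported here) and up to 4 called genes of each list with at least 10 CPM and 1 direction in all libraries. Shares used nuclei thinned to 1000 UMIs, which left out 523 nuclei. Intervals are exact Poisson or Clopper-Pearson at 95% and cover counting error only. The fits were tested on simulated data.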

Additional observations from a re-analysis of the deposited data

Results flagged for a closer look

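Within IOT, the log2 ratio of Ina between injury-state nuclei and nuclei with no Atf3 or Sema6a UMI was -0.39 at day 2 (49 and 176 UMIs), while the other days gave -1.32, -1.43 and -1.39, so day 2 lay far from them for a group of 4. In all, 30 groups of ratios were checked in this way, and chance gives such a gap in about 1 group in 20. Injury-state nuclei on the I2 side held 38 of the 49 Ina UMIs at day 2.

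Ina in the injured clusters against other nuclei was lower in each of the 4 IOT libraries (log2 ratios of -0.89, -1.30, -1.46 and -1.76) and higher in both milder injury libraries (0.67 after facial injury, with 9 UMIs, and 0.36 with scratch lesions, with 21 UMIs). The mean difference between the IOT and milder injury libraries was -1.87. This difference was not tested.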

How the results depend on the processing

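Large against small classes kept direction and call for all 6 members in every setting, with 7075 to 7423 genes called when each library was left out and 2100 without the library block, against 7569. Neighboring classes gave 0 called pairs on the nucleus scale too, but the top class changed for each triplet gene. Depth limits Ina, whose injury-state values after IOT rest on 8 to 49 UMIs per library. Pairing between conditions was not possible because they share fewer than 2 replicate numbers. Sets of nuclei were paired within libraries, and the block is the library in which both sets were measured. For the values below the cause was not tested unless fewer samples or genes account for it.

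After IOT (2574 genes called), at least 1 Atf3 or Sema6a UMI brought Nefh (0.27), Nefl (0.21) and Nefm (0.28) past the threshold, as did leaving out the low-Malat1 cluster for Nefm (0.32). With injured nuclei set by cluster, Nefh was -0.63, Nefl -0.53, Nefm -0.38 and S100b -0.80. At 2000 to 6000 UMIs they were -0.12, -0.15, -0.019 and -0.20, and without the deepest 5% of nuclei Nefh was -0.017, Nefl -0.047 and S100b -0.11. S100b was -0.043 with at least 1 Atf3 UMI, -0.030 without TMM and -9.2e-05 without the block, where Ina (-1.02) lost its call and 261 genes were called. With each library left out Nefm ran from 0.21 to 0.29, S100b from -0.056 to 0.083 (below 0 without day 75) and genes called from 1570 to 3205.

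After milder injury (470 genes), Nefm passed in DESeq2 (0.50), and Nefm (0.36) and Nefl (0.32) with at least 1 Atf3 or Sema6a UMI (281 genes). S100b was -0.043 at 2000 to 6000 UMIs, 0 genes were called without the block, and 18 to 60 with a library left out.

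For IOT minus control (2 genes), at least 1 Atf3 UMI gave Nefh -1.01, Nefl -0.96 and Nefm -0.98, all called, with 89 genes, and no value for Ina, since those control nuclei held no Ina UMI. Ina was -0.27 at 2000 to 6000 UMIs (161 genes). Genes called were 40 in DESeq2, 83 with Drop-seq as a second control, 10 without TMM, 15 without the filter, 17 without the deepest 5%, and 0 without the block or with at least 1 Atf3 or Sema6a UMI. With each IOT library left out Nefh ran from -0.66 to -0.56, Nefl from -0.77 to -0.64, Nefm from -0.77 to -0.67, S100b from -0.80 to -0.65 and genes from 0 to 341.

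On the I1 side (1019 genes), Ina lost its call in DESeq2 (-1.26, 579 genes), without the block (-1.27, 14 genes) and without the deepest 5% (-0.54), where S100b passed (-0.38). In injured clusters only, Nefh was -0.84, Nefl -0.66, Nefm -0.62 and S100b -0.85 (2718 genes). Resolution 0.6 gave Nefm 0.016 and Prph -0.061, and leaving out the low-Malat1 cluster gave Nefl 0.047 and Nefm 0.064. With each library left out Ina ran from -1.39 to -1.16, Nefh from -0.26 to -0.060 and S100b from -0.36 to -0.14 (both called without day 75), Nefl from -0.21 to 0.016, Nefm from -0.14 to 0.024 and genes from 221 to 1956.

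On the I2 side (989 genes), Nefm lost its call in DESeq2 (0.36, 462 genes), without the filter (0.25, where Nefl was -0.017), without the block (0.36, 63 genes), with only nuclei over 0.25 from the dividing score (0.29) and in injured clusters only (0.19), where Nefh was -0.093, Nefl -0.18 and S100b -0.76 (1662 genes). Nefh was 0.67, Nefl 0.35 and S100b 0.70 at resolution 0.6 and also without the cluster of uncertain size, and resolution 2 gave Nefh 0.48 and S100b 0.28. With each library left out Nefm ran from 0.32 to 0.42, S100b from -0.13 to 0.12 and genes from 408 to 1002.

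Highest over lowest library with classes weighted equally was 1.84 for Ina, 2.12 for Nefh, 2.53 for Nefl, 2.22 for Nefm, 2.04 for Prph and 1.85 for S100b, and without the low-Malat1 cluster 2.03 for Nefh, 2.46 for Nefl and 2.09 for Nefm. Control shares without thinning were 4.62% for Ina, 61.0% for Nefh, 82.6% for Nefl, 57.1% for Nefm, 84.1% for Prph and 50.3% for S100b, and thinned to 2000 UMIs 2.46%, 50.1%, 75.4%, 44.9%, 73.3% and 39.2%. No cluster was rich in glial markers, so keeping such clusters was no alternative. The cluster of uncertain size, the low-Malat1 cluster and the limit to injured clusters were chosen as alternatives after seeing the data.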
